A study of Rattus norvegicus with 23 samples.

Results

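Notch receptors, the ligand Jag1, the Deltex ubiquitin ligases and the target genes Hey1 and Heyl were followed in single newborn rat hearts. The 10 genes were Notch1, Notch2, Notch3, Jag1, Dtx1, Dtx2, Dtx3, Dtx4, Hey1 and Heyl, and a probe set counted as theirs when the array annotation gave it that gene symbol alone. Of the 10 genes, 8 had such a probe set, 1 each, out of 14506 genes so named in all. Dtx1 and Dtx3 had none, so their expression is not analysed here. The genes were chosen by their differences in these same arrays, above all the low Dtx4 and Notch2 values of the combination exposed hearts, so their differences that involve combination hearts are given below as a description, with a standard error and no p-value. Where a count of genes past a threshold is printed for those comparisons, it serves only to set them beside all probe sets, and nothing is read from it.

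The arrays held 23 whole hearts of Sprague Dawley rats taken on postnatal day 1, males and females together, with the sex of single hearts not given. Dams ate control or high fat (HF) diet, begun at least 28 days ahead of mating and kept up until delivery. On gestational day 14 they received either 65 mg/kg streptozotocin, which destroys pancreatic beta cells, or 0.09 M citrate buffer. The design gave 7 control hearts (control diet, buffer), 6 diabetes exposed hearts (control diet, streptozotocin), 5 HF diet exposed hearts (HF diet, buffer) and 5 combination exposed hearts (HF diet, streptozotocin). Diabetic dams were kept on insulin with a blood glucose target of 200 to 400 mg/dl, and pups were delivered on gestational day 22. The hearts carry 19 code stems in their names, and the 5 HF diet and 5 combination hearts have 3 stems per group. Whether hearts with a common stem are littermates is not stated, and p-values cover only the spread among these hearts.

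Values are deposited log2 intensities of Affymetrix Rat Gene 1.0 ST arrays, centred so that the median of each probe set over the 23 hearts is 0. A value is therefore a difference from that median and not a level, and neither expression above background nor the order of the genes by abundance can be read from it. For the same reason the cardiomyocyte markers cannot show presence or absence, but their mean per heart varied little, from -0.21 to 0.08 over 12 probe sets. The SD over all probe sets of an array ran from 0.160 to 0.393 and was widest in combination heart 1. In control heart 1, 9 lung and thymus probe sets had a mean of 3.83, where the other 6 control hearts lay between -0.16 and -0.04. HF diet heart 4 and diabetes heart 3 were next, at 0.708 and 0.520. Control heart 1 had the highest value of its group in 5 of the 8 genes, and combination heart 1 the lowest of its group in 5 of 8, so results are given with and without these hearts where they matter.

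Notch receptors are single-pass membrane proteins that are bound by Delta or Jagged ligands on a neighbouring cell, cut by proteases, and release an intracellular domain that enters the nucleus. There it joins the DNA-binding protein RBPJ, Mastermind and histone acetyltransferases to switch on genes of the Hes and Hey families, which encode transcriptional repressors. Deltex proteins are RING ubiquitin ligases that bind the intracellular part of Notch and affect its trafficking and turnover. In the heart the pathway is known for its work in endocardium, valves, trabeculae and coronary vessels.

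The 3 receptors varied together across hearts and Dtx4 had the lowest combination mean, as described further on, so the 250 bases before the start sites of these 4 genes are shown, 5′ to 3′ on the strand of the gene. The sequences are those of RefSeq on GRCr8, at chr3:29721614-29721863 (Notch1, minus strand), chr2:188299086-188299335 (Notch2, plus strand), chr7:11834586-11834835 (Notch3, minus strand) and chr1:218917467-218917716 (Dtx4, minus strand). Capitals mark CG dinucleotides.
Notch1: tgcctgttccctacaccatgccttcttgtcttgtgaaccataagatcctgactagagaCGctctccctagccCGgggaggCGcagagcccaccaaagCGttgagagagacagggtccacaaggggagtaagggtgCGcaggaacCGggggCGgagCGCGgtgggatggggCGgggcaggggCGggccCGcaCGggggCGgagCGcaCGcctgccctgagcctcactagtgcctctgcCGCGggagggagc
Notch2: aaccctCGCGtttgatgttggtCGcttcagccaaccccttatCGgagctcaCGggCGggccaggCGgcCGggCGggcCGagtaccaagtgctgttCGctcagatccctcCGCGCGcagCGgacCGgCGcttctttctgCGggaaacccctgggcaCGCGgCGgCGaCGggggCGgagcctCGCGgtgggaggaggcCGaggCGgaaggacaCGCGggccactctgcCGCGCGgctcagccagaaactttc
Notch3: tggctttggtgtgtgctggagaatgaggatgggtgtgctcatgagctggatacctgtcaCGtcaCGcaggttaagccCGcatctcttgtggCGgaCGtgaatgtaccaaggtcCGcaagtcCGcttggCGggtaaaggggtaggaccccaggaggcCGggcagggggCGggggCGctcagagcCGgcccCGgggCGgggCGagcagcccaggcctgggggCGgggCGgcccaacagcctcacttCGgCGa
Dtx4: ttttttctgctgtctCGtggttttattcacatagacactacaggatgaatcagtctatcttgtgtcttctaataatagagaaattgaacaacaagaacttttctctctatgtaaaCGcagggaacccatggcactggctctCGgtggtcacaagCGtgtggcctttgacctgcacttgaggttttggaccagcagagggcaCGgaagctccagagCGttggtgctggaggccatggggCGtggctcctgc

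Of the 10 genes, 8 had a promoter in the RefSeq table, with 9 windows because Dtx4 has a second listed start. They are not the 8 genes measured on the arrays. Hey1 and Dtx3 had no promoter there and were not searched, while Dtx1, which had no probe set, was searched. The 3 receptor windows were rich in CG dinucleotides, with 18 in Notch1, 33 in Notch2 and 19 in Notch3, against a median of 5 over 33469 promoters of that length. Jag1 held 24. The windows of Dtx4 held 7 and 1 CG dinucleotides, that of Dtx2 held 8 and that of Heyl 9. GC content was 67.6%, 70.4% and 67.6% in the receptors and 49.2% in the Dtx4 window printed above, with a median of 51.2% over all promoters. The letters TGGGAA, the core bound by RBPJ, were searched on both strands and were found in Dtx2 alone, 46 bases before its start on the strand opposite to the gene. The same letters occur in 22.1% of all promoters. The E box CACGTG, a sequence bound by Hes and Hey proteins, was in none of the 9 windows and in 5.59% of all promoters. A match is a description of letters and not a binding site.

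**Figure D1:**
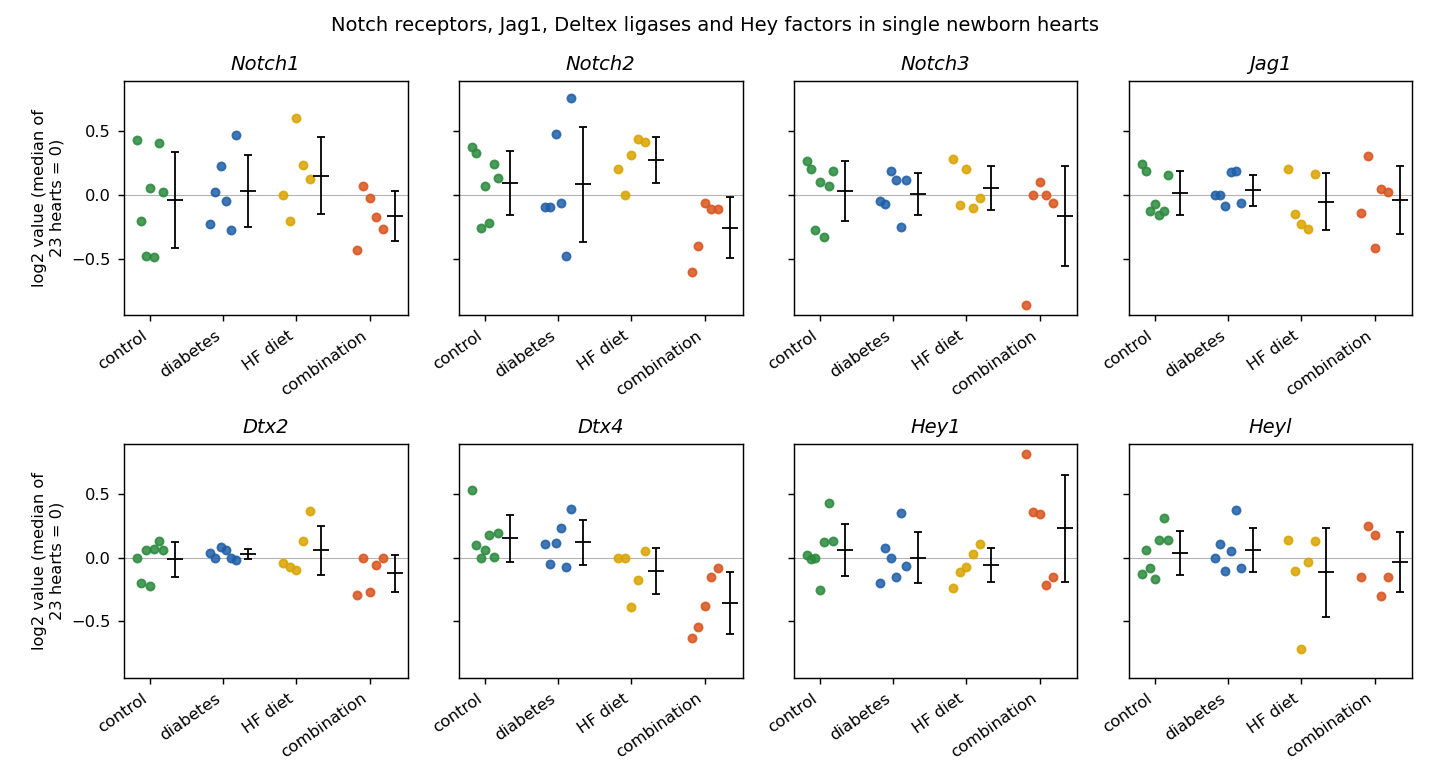
Centred log2 value of each gene in each heart (vertical axis, log2, median of 23 hearts set to 0) by exposure group (horizontal axis). Points are hearts, and the black mark and bar are group mean and SD. The combination hearts of Dtx4 all lie below every control and diabetes heart, and those of Notch2 below every HF diet heart.

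Dtx4, which encodes a Deltex ligase, had the lowest mean in combination hearts. Its 5 combination values were -0.628, -0.548, -0.377, -0.149 and -0.079. The lowest of these are from hearts 1 and 2, which share a code stem. The 5 HF diet values were -0.003, 0, -0.389, -0.173 and 0.049. In control hearts the lowest value was -0.004, the median 0.10 and the highest 0.528, and in diabetes hearts the lowest was -0.076, the median 0.110 and the highest 0.383. Every combination heart thus lay below every control and every diabetes heart, and the HF diet hearts overlapped all 3 other groups. Control hearts averaged 0.15 ± 0.18 (SD, n = 7) and diabetes hearts 0.12 ± 0.17 (SD, n = 6). HF diet hearts averaged -0.10 ± 0.18 (SD, n = 5), and combination hearts -0.36 ± 0.24 (SD, n = 5).

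The combination hearts differed from control by -0.51 on the log2 scale (SE 0.11), a 1.42-fold lower value. The difference from diabetes hearts was -0.47 (SE 0.11), or 1.39-fold lower. From HF diet hearts it was -0.25 (SE 0.12). With single hearts left out the difference from control ran from -0.58 to -0.44 and that from diabetes from -0.54 to -0.41. Without control heart 1 and combination heart 1 together it was -0.38 against control and -0.19 against HF diet hearts.

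Dtx2, the other measured Deltex ligase, moved little. Its 5 combination values were -0.290, -0.001, -0.267, -0.061 and 0, and its 5 HF diet values were -0.040, -0.073, -0.099, 0.127 and 0.367. Control hearts ran from -0.223 to 0.129, with a median of 0.060, and diabetes hearts from -0.020 to 0.083. All groups overlapped. The combination mean lay below each other group, by 0.11 (SE 0.083) against control, 0.15 (SE 0.086) against diabetes and 0.18 (SE 0.090) against HF diet hearts on the log2 scale.

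Among the receptors, Notch2, which acts in smooth muscle and other mesenchymal cells, stood lowest in combination hearts. Its 5 combination values were -0.609, -0.402, -0.064, -0.110 and -0.108, and its 5 HF diet values were 0.204, 0, 0.315, 0.438 and 0.411. Control hearts had a lowest value of -0.258, a median of 0.134 and a highest of 0.375, and diabetes hearts -0.479, -0.080 and 0.762. Combination hearts lay below every HF diet heart, while both other groups overlapped them. Combination hearts 1 and 2, which stood lowest, share a code stem, as do HF diet hearts 3, 4 and 5, which stood highest. The difference from HF diet hearts was -0.53 (SE 0.18), 1.45-fold lower, and that from control was -0.35 (SE 0.17), 1.28-fold lower. The difference from diabetes hearts was -0.34 (SE 0.17).

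The Notch2 difference from HF diet hearts ran from -0.60 to -0.44 with single hearts left out and was -0.42 when hearts with a common stem were averaged. That from control ran from -0.41 to -0.27, lowest in size without combination heart 1, and was -0.22 without control heart 1 and combination heart 1 together. That from diabetes hearts ran from -0.45 without diabetes heart 5 to -0.21 without diabetes heart 6. The interaction term, the combination mean minus the diabetes and HF diet means plus the control mean, was -0.52 (SE 0.24) for Notch2, -0.38 (SE 0.24) for Notch1, 0.35 (SE 0.20) for Hey1, -0.22 (SE 0.16) for Dtx4 and -0.22 (SE 0.12) for Dtx2.

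Notch1, the receptor best known in endothelium and endocardium, was also lowest in combination hearts, but with wide overlap. The 5 combination values were -0.434, 0.067, -0.021, -0.173 and -0.266, and the 5 HF diet values were 0, -0.204, 0.606, 0.233 and 0.123. The highest of the latter are from HF diet hearts 3, 4 and 5, which share a code stem. Control hearts alone spread from -0.484 to 0.427. The difference from HF diet hearts was -0.32 (SE 0.18), and it ran from -0.41 without HF diet heart 2 to -0.20 without HF diet heart 3. Those from diabetes and control hearts were -0.19 (SE 0.17) and -0.13 (SE 0.17).

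Notch3, the receptor of vascular smooth muscle and pericytes, had a combination mean of -0.16 ± 0.39 (SD, n = 5) that rested on 1 heart. Combination heart 1 stood at -0.862 and the other 4 at 0, 0.103, 0 and -0.064. With that heart the difference from control was -0.20 (SE 0.14), and without it -0.02. The differences from diabetes and HF diet hearts became 0.00 and -0.05 without it.

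Jag1, the Jagged ligand needed for outflow tract and valve development, did not separate the groups. Its combination values ran from -0.420 to 0.303 and its control values from -0.159 to 0.239. The largest of its 6 pairwise differences was 0.09 (SE 0.12), between diabetes and HF diet hearts.

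The targets Hey1 and Heyl, both Hes-related repressors, did not follow the receptors. Hey1 stood at 0.809, 0.358, 0.344, -0.219 and -0.151 in combination hearts and at -0.239, -0.112, -0.078, 0.028 and 0.110 in HF diet hearts. Thus 3 combination hearts lay above every HF diet heart and the other 2 lay within their range. The Hey1 difference was 0.17 (SE 0.14) against control, 0.23 (SE 0.15) against diabetes and 0.29 (SE 0.15) against HF diet hearts. Without combination heart 1 it was 0.02, 0.08 and 0.14. Without combination heart 4 it was 0.34 against diabetes and 0.40 against HF diet hearts. Heyl had a mean of -0.04 ± 0.24 (SD, n = 5) in combination hearts and 0.04 ± 0.17 (SD, n = 7) in control. Its lowest value, -0.715, was in HF diet heart 3.

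**Figure D2:**
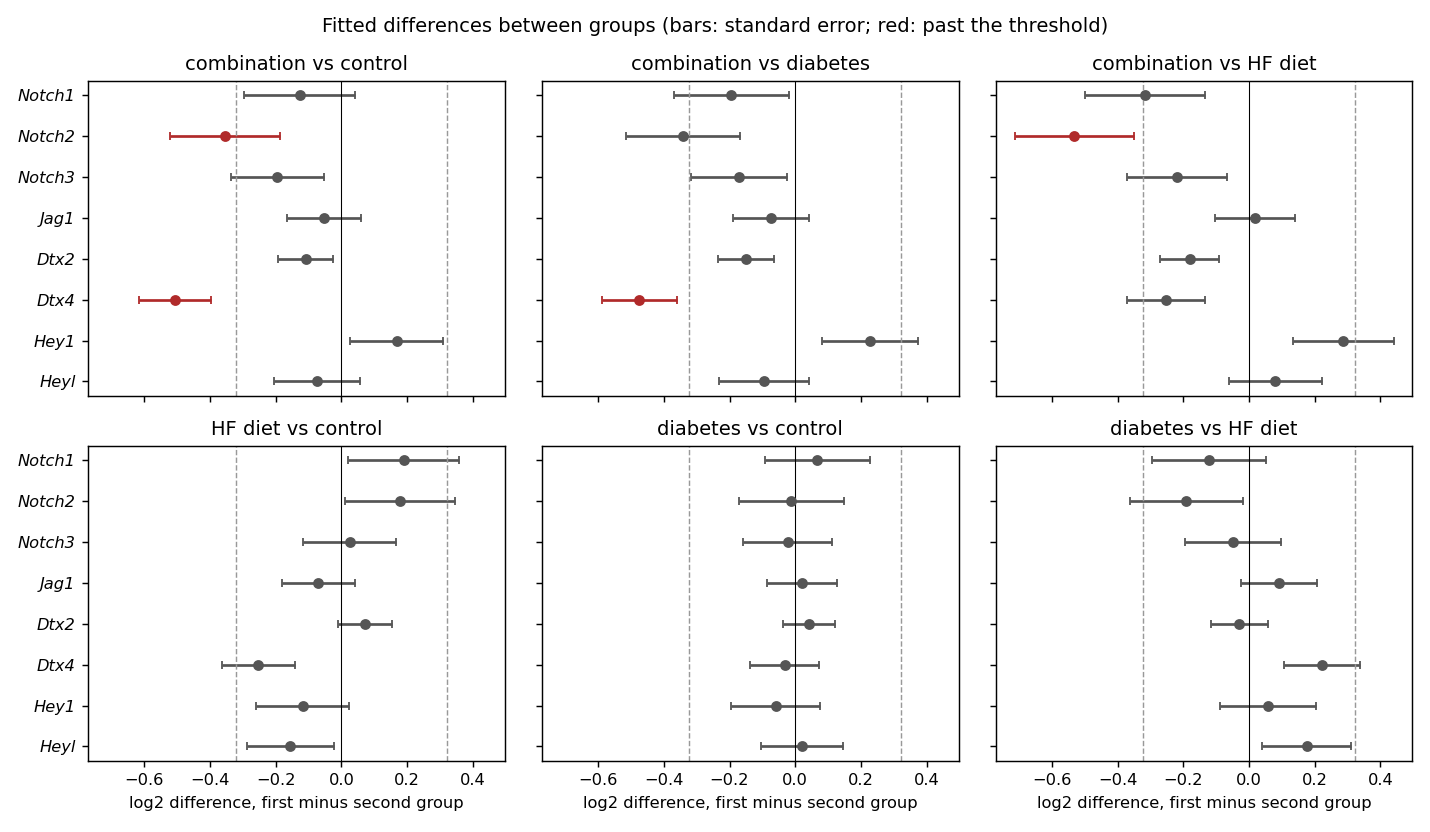
Fitted difference of each gene in the 6 pairwise comparisons (horizontal axis, log2, first minus second group), with bars for the standard error and dashed lines at a 1.25-fold change. Red marks differences beyond that fold with an unadjusted limma p under 0.05, which are Dtx4 and Notch2 against control, Dtx4 against diabetes and Notch2 against HF diet hearts.

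The threshold used for counts was a fold change beyond 1.25 in either direction together with an unadjusted limma p under 0.05. Over the 8 genes, 2 were lower past the threshold and 0 higher in combination against control, where 3.31% of the 29170 probe sets were past it and 1.2% were lower. Of these 2, Notch2 was short of it in 7 of the 12 fits with a single heart left out. Those were the fits without control heart 1, 2, 4, 6 or 7 or combination heart 1 or 2. In combination against diabetes 1 was lower, with 3.04% of all probe sets past the threshold and 1.37% lower. In combination against HF diet 1 was lower, with 5.76% past it and 2.92% lower. The share of all probe sets whose combination values lay below the other group without overlap was 0.0857% against control, 0.12% against diabetes and 0.96% against HF diet. The interaction term passed it for 1 gene, Notch2, and for 4.34% of all probe sets. That count became 0 with control heart 3, 4 or 5, diabetes heart 3 or 6, HF diet heart 3, 4 or 5, or combination heart 1 or 2 left out, and 2 with combination heart 4 or 5 left out. The median difference over the 8 genes was -0.12 against control, -0.16 against diabetes and -0.20 against HF diet hearts, beside medians near 0 over all probe sets. Against control 7 of the 8 differences were negative, as were 49.4% of all. After Benjamini-Hochberg adjustment of the limma p over all probe sets, 0 of 29170 passed 0.05 in any of the 6 comparisons. Unadjusted, 2889, 2745 and 3893 passed 0.05 in combination against control, diabetes and HF diet.

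The comparisons without combination hearts were tested. They share hearts with the comparisons by which the genes were chosen, so their p-values are not free of that choice. HF diet and control hearts differed in diet without streptozotocin. Dtx4 was lower in HF diet hearts by a log2 difference of -0.25 (SE 0.11, 95% confidence interval -0.48 to -0.02), with a limma p of 0.0319 and an adjusted p of 1.00. That is 1.19-fold, under the fold limit, so the gene was not past the threshold. Without control heart 1 the difference was -0.19, and over all single hearts left out it ran from -0.29 to -0.18. This comparison uses the same control hearts as the one that drew attention to Dtx4. Notch1 and Notch2 stood 0.19 (SE 0.17) and 0.18 (SE 0.17) above control in HF diet hearts, with limma p of 0.271 and 0.298. None of the 8 genes was past the threshold, with 0.943% of all probe sets past it.

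Diabetes and control hearts differed in streptozotocin and insulin on control diet. The differences of the 8 genes lay between -0.06 and 0.07 on the log2 scale, and the lowest limma p was 0.597. The background was 0.305% of probe sets. The interval for Notch2, with the widest spread in diabetes hearts, was -0.34 to 0.32. Its lower end falls just short of the -0.35 of combination against control hearts, so a change slightly smaller than that is not shown to be absent. Between diabetes and HF diet hearts, Dtx4 differed by 0.22 (SE 0.11, 95% confidence interval -0.02 to 0.46), with a limma p of 0.0655 and an adjusted p of 1.00. This comparison uses the same diabetes hearts that lay above every combination heart for Dtx4, so its p-value is not free of the choice of that gene. In diabetes against HF diet hearts 0 of 8 genes were past the threshold, with 0.439% of all. Notch2 passed it there without diabetes heart 6 (-0.33), and differed by -0.19 with all hearts. At an unadjusted limma p under 0.05 there were 778, 469 and 629 of 29170 probe sets in HF diet against control, diabetes against control and diabetes against HF diet.

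The rest of the pathway was taken from a list of 65 genes set by role, of which 56 had 57 probe sets. In combination against control 2 were lower past the threshold and 0 higher, beside the 3.31% of all probe sets. Against diabetes 3 were lower, beside 3.04% of all past it and 1.37% lower, and against HF diet 3 were lower and 1 higher, beside 5.76% past it and 2.92% lower. In the 3 comparisons without combination hearts 0 of 57 were past it. Of the 57 differences from control, 40 were negative in combination hearts, as were 49.4% of all, and their median was -0.04. No adjusted p of these genes passed 0.05.

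The genes past the threshold in all 3 comparisons were Ep300 and Crebbp, the histone acetyltransferases that bind the Notch complex and many other transcription factors. Ep300 values in combination hearts were -0.567, -0.153, -0.322, 0 and -0.030, and those of Crebbp were -0.870, -0.310, -0.289, 0.026 and -0.080. In control hearts Ep300 ran from -0.239 to 0.647 and Crebbp from -0.300 to 0.478, so the groups overlapped. Against control, Ep300 differed by -0.37 (SE 0.15) and Crebbp by -0.42 (SE 0.15). Without combination heart 1 neither gene was past the threshold in any of the 3 comparisons, with differences from control of -0.29 for Ep300 and -0.27 for Crebbp. With the mean of the long-transcript list described below as a covariate they were -0.03 and -0.05, and both genes were short of the threshold in all 3 comparisons. Both genes are themselves chromatin regulators, and that list was chosen with earlier results of these data known. A smaller difference with this covariate is therefore partly built in, and nothing is concluded from it. Array weights had the same effect on the calls, with -0.28 and -0.30 against control, and Crebbp passed in none of the 3 by the methods' t-test. Ep300 also fell short against control without control heart 1 (-0.29), against diabetes without diabetes heart 3 (-0.34) or 6 (-0.30) or combination heart 3 (-0.35), and against HF diet without HF diet heart 1 (-0.34), 3 (-0.33) or 5 (-0.35) or combination heart 3 (-0.35). Crebbp fell short against diabetes without diabetes heart 6 (-0.28) and against HF diet without HF diet heart 1 (-0.37), 3 (-0.37) or 5 (-0.36). With quantile normalisation Ep300 fell short in all 3 comparisons (-0.31 against control), and Crebbp against diabetes (-0.28) and HF diet (-0.30). A replicate block left both genes short against control (-0.29 for Ep300, -0.32 for Crebbp) and diabetes. Averaging hearts with a common stem left both short against HF diet, and Crebbp against diabetes.

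Furin, the protease that cuts the receptor precursor, was lower in combination than in diabetes hearts by a log2 difference of -0.32 (SE 0.12). Mib1, the ubiquitin ligase that activates ligands, was lower than in HF diet hearts at -0.39 (SE 0.17). Each fell short of the threshold without combination heart 1, at -0.22 and -0.27. So did Furin without diabetes heart 3 (-0.32), 4 (-0.31) or 6 (-0.24) or combination heart 4 (-0.32), and Mib1 without HF diet heart 3 (-0.29). Furin was short of the threshold, too, by the methods' t-test, with quantile normalisation (-0.28), array weights (-0.22), stems as a block (-0.31) or averaged (-0.26), a replicate block (-0.27) or the long-transcript covariate (-0.14). Mib1 was short of it with quantile normalisation (-0.31), array weights (-0.26), stems as a block (-0.37) or averaged (-0.32) or the covariate (0.02). Dll4, the endothelial Delta ligand, was the 1 gene higher. Its combination values of 0.162, 0.874, 0.171, 0.064 and 0.142 all lay above the HF diet values of -0.058, -0.070, 0, -0.147 and -0.115. The difference was 0.36 (SE 0.17), and 0.21 without combination heart 2. It was short of the threshold, too, without HF diet heart 1 (0.37), 2 (0.36), 4 (0.34) or 5 (0.35), by the methods' t-test, with stems as a block (0.36) or averaged (0.34), and with the covariate (0.20). Groups did not overlap in 1.64% of all probe sets in that comparison.

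By role, differences from control were negative for 7 of 8 genes of the nuclear complex (median -0.09), 7 of 9 of turnover and inhibitors and 8 of 12 probe sets of corepressors. They were negative for 6 of 8 genes that modify ligands and receptors, 5 of 7 that cut the receptor and 5 of 8 other ligands and receptors. Of the 6 other targets only 2 were negative, Hey2 at -0.22 (SE 0.16) and Hes5 at -0.04 (SE 0.07), and their median was 0.03. Hes1, the most widely used target, stood at 0.01 (SE 0.13). Nrarp, an inhibitor that is itself a target, is counted in both roles.

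**Figure D3:**
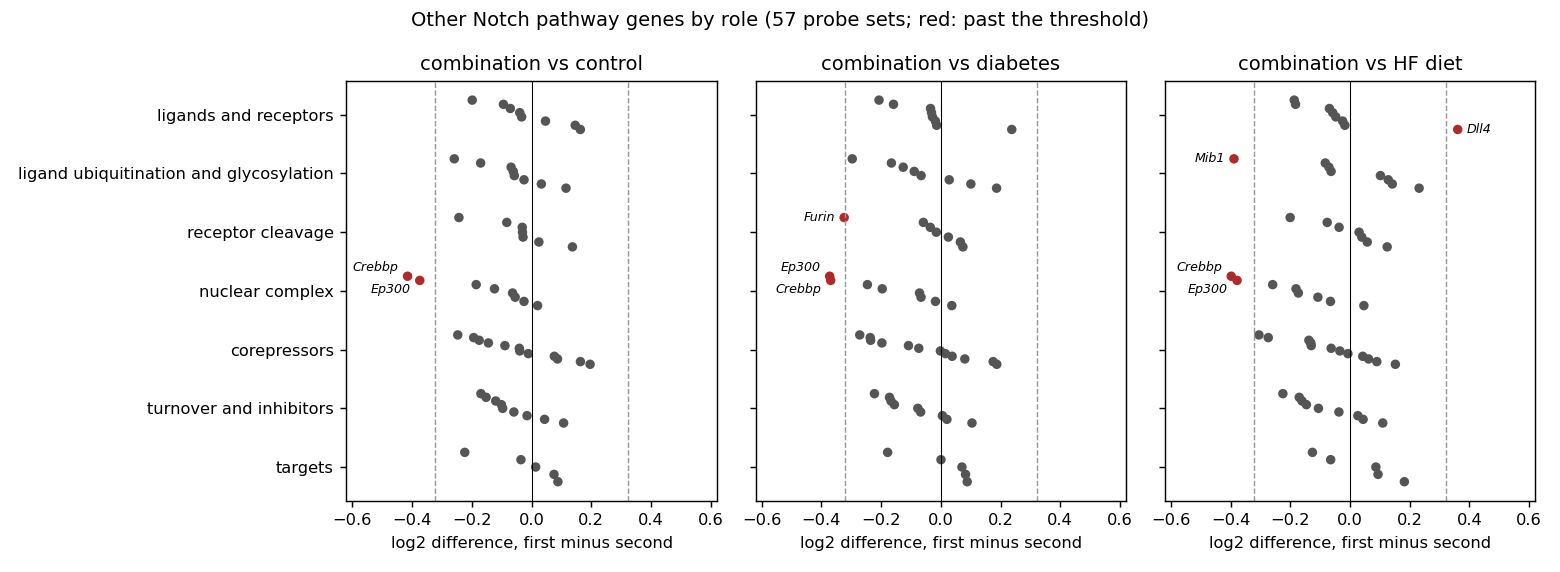
Difference of each other Notch pathway probe set (horizontal axis, log2, combination minus the named group) by role (vertical axis). Nrarp is drawn under turnover and inhibitors only. Dashed lines mark a 1.25-fold change, and red points with names are past the threshold. Most points lie between the dashed lines, and Ep300 and Crebbp are red in all 3 panels.

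Across the 23 hearts the 3 receptors rose and fell together. With group means removed, Pearson r was 0.72 for Notch1 and Notch2, 0.64 for Notch2 and Notch3 and 0.61 for Notch1 and Notch3. Dtx4 went with Notch2 (0.52) and Notch3 (0.43) but little with Notch1 (0.13). Hey1 ran against Dtx4 (-0.55) and Notch3 (-0.54). Jag1 and Dtx2 had no pair with a receptor beyond 0.27 in size. These are descriptions over 23 arrays that each carry their own RNA quality and composition, and genes on an array share both.

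**Figure D4:**
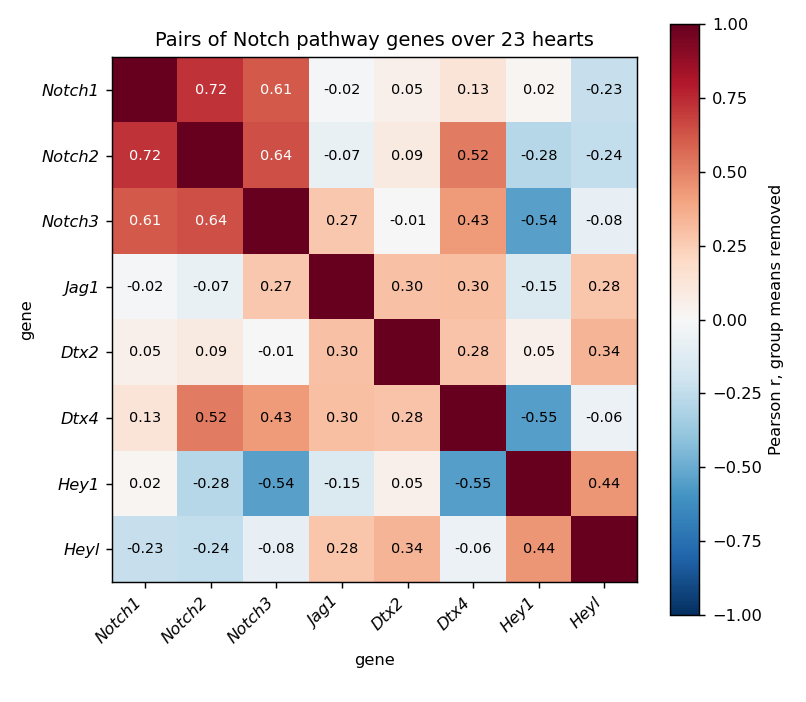
Pearson r of each pair of genes over 23 hearts after each group's mean was taken away (both axes list the genes, colour from -1 to 1). Notch1, Notch2 and Notch3 form a block between 0.61 and 0.72, and Hey1 is at -0.55 with Dtx4 and -0.54 with Notch3.

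Many other genes shared these patterns. The probe sets most like Notch2 over the 23 hearts were Sfswap (r = 0.92, 0.90 with group means removed), Hipk1 (0.92), Supt6h (0.91), Foxp1 (0.90) and Smad5 (0.90). Those most like Dtx4 were Cuedc1 (0.87, 0.88 with group means removed), Irak1 (0.85), Sh3bp2 (0.85), Rnf44 (0.84) and Smarcd1 (0.84). The first principal component of all probe sets held 28.8% of the variance and had combination heart 1 at its positive end. Notch2 correlated with it at -0.83, Notch3 at -0.76, Notch1 at -0.72, Dtx4 at -0.48 and Hey1 at 0.64.

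A list of chromatin regulators with long transcripts, 14 of 25 of them with a named probe set, was drawn up as a guide to RNA integrity, since long transcripts are more easily lost from broken RNA. Its mean per heart averaged 0.02 ± 0.24 (SD, n = 7) over control hearts and 0.01 ± 0.20 (SD, n = 6) over diabetes hearts. HF diet hearts averaged 0.07 ± 0.13 (SD, n = 5). Combination hearts averaged -0.29 ± 0.28 (SD, n = 5) and ran from -0.75 in heart 1 to -0.03. Against control all 14 probe sets were lower in mean and 6 were lower past the threshold, with a median of -0.32. Of all probe sets, 49.4% were lower in mean and 1.2% were lower past the threshold. The list was chosen with earlier results of these data known, so its low values in combination hearts are a description only. Over the 23 hearts the list correlated with Notch3 at 0.86, Notch2 at 0.77, Notch1 at 0.73, Dtx4 at 0.61, Dtx2 at 0.30, Jag1 at 0.22, Heyl at -0.20 and Hey1 at -0.65. With the mean of the list as a covariate, the Notch2 difference was -0.07 against control and -0.19 against HF diet hearts. The differences of Notch1 and Notch3 turned positive, to 0.17 and 0.10 against control, 0.10 and 0.12 against diabetes and 0.04 and 0.13 against HF diet hearts. The Dtx4 difference with it was -0.37 against control and -0.34 against diabetes hearts, and -0.09 against HF diet hearts. The paper states that RNA integrity was measured before labelling and that samples under a set limit were not used. Values for single hearts were not given in the sources used here. Which part RNA integrity or the chromatin genes have in these differences was not tested.

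**Figure D5:**
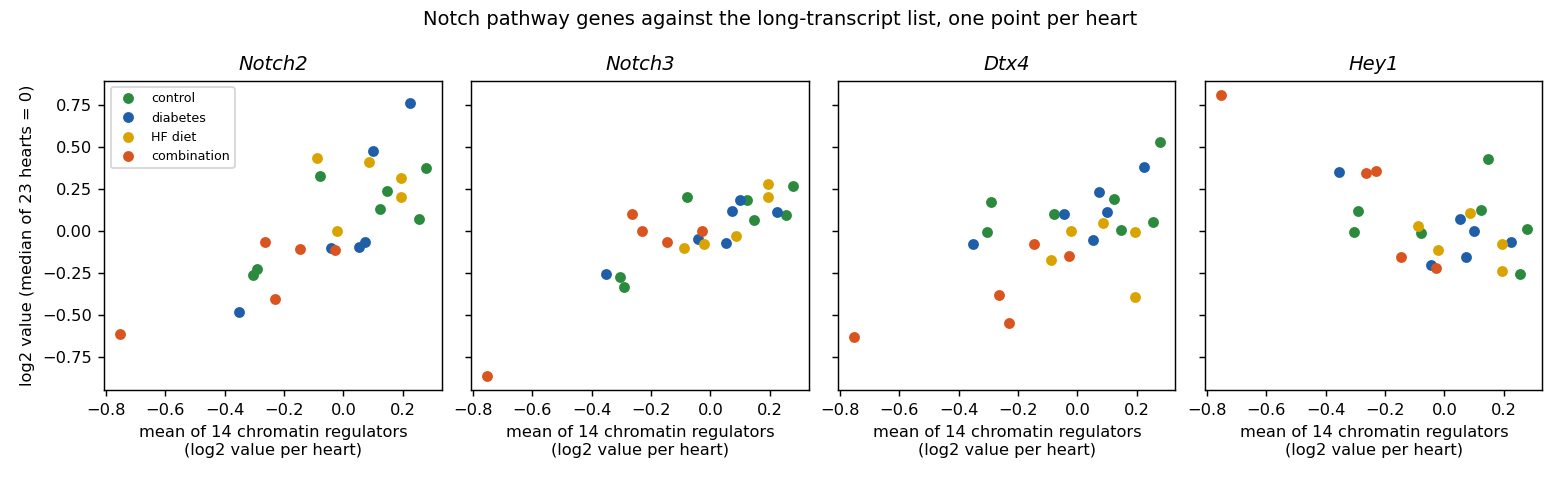
Centred log2 value of Notch2, Notch3, Dtx4 and Hey1 (vertical axis) against the mean of 14 long-transcript chromatin regulators in the same heart (horizontal axis, log2), with a point per heart coloured by group. Notch2 and Notch3 rise along the axis, Hey1 falls, and several combination points of Dtx4 lie below hearts of other groups at the same list value.

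Cell markers were set beside the genes, since in a whole heart fewer cells of a type and less RNA per cell cannot be told apart. The endothelial list of 13 probe sets had means per heart from -0.10 to 0.21 in control and from -0.09 to 0.18 in combination hearts, with group means of 0.02 and 0.03. The mural list of 11, which does not hold Notch3, averaged -0.02 ± 0.10 (SD, n = 7) in control and -0.08 ± 0.19 (SD, n = 5) in combination hearts, where heart 1 was at -0.43. The fibroblast list of 10 averaged 0.01 ± 0.11 (SD, n = 7) and -0.11 ± 0.10 (SD, n = 5). The erythroid list of 9 ranged widely, from -0.74 to 0.29 in control and from -0.46 to 1.43 in combination hearts. Over the 23 hearts Notch1 correlated with the cardiomyocyte list at 0.68, the epicardium list at -0.63 and the endothelial list at 0.62, so no single list stood out. Notch3 correlated with the cardiomyocyte list at 0.84 and the mural list at 0.67, and Hey1 with the cardiomyocyte list at -0.61 and the macrophage list at 0.55. Notch2 was at 0.71 with the cardiomyocyte list, -0.54 with epicardium, 0.38 with mural and 0.31 with fibroblast. Dtx4 was at 0.42 with the lung and thymus list, where control heart 1 stood highest in both, and at 0.41 with the cardiomyocyte list. The part of these cell types in the differences was not tested.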

How the data were processed

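The authors hybridised 100 ng of RNA per heart to Affymetrix Rat Gene 1.0 ST arrays and normalised the intensities in GeneSpring GX, averaging the probes of each set and filtering on quality. The algorithm and the filter limits were not given in the sources used here. Deposited log2 values cover 29170 probe sets, centred by the authors on the median over 23 hearts. The centring removes each probe set's level, so signal over background is unknown and no dim probe set was left out here. The number of arrays limits the precision. No second normalisation was applied.

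Gene names came from the array annotation (15310 probe sets with 1 symbol, 15279 matched to RefSeq by Entrez identifier). The members and lists were chosen with earlier results of these data known. limma 3.58.1 in R 4.3.3 fitted 1 mean per group to all 23 hearts (19 residual degrees of freedom), in place of the unequal-variance test of the methods, which was run as an alternative under the name "the methods' t-test". The threshold was a 1.25-fold change and an unadjusted p under 0.05, with Benjamini-Hochberg adjustment over 29170 probe sets for each of 6 comparisons and the interaction. The fit was tested on simulated data. All 10 genes were to be described, with at most 5 pathway genes past the threshold per comparison, and the 5 probe sets most correlated with Dtx4 and with Notch2. Alternatives were quantile normalisation, array weights, the code stem as a random block or averaged, a replicate block, the compared groups alone, single-symbol probe sets alone, and each heart left out. A covariate from the long-transcript list, and leaving out control heart 1 with combination heart 1, were chosen after seeing the data. Motifs were searched in the 250 bases before RefSeq starts (GRCr8).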

Additional observations from a re-analysis of the deposited data

Results flagged for a closer look

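In 3 of the 32 gene and group sets, a single heart lay far from the others of its group. Its gap to the next heart was 0.83, 0.64 and 0.72 of the group's range, in the order given below. A rate of about 1 in 20 would hold for independent sets. These sets share hearts and hold correlated genes, so the 3 are not read as an excess. Notch3 in combination heart 1 was at -0.862, with the next heart at -0.064. Dtx4 in control heart 1, the heart with high lung and thymus genes, was at 0.528, with the next at 0.190. Heyl in HF diet heart 3 was at -0.715, with the next at -0.104, and the same heart had the lowest Dtx4 value of its group, -0.389.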

How the results depend on the processing

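No difference of the 8 genes that was past the threshold changed sign under any alternative. Over all alternatives tried, the Dtx4 difference ran from -0.58 to -0.37 against control and from -0.54 to -0.34 against diabetes hearts. Since these values chose the genes, their calls are no evidence of stability. For Notch2 against control the difference was -0.30 with array weights, -0.35 with the code stem as a block, -0.32 with stems averaged and -0.22 without control heart 1 and combination heart 1, none past the threshold. Notch2 against HF diet was lost with stems averaged (-0.42). The count of the 8 genes past the threshold in combination against control fell from 2 to 1 under these 4 settings, a replicate block and the long-transcript covariate, and against HF diet from 1 to 0 with stems averaged and with the covariate. With single hearts left out these counts ran from 1 to 2 against control, 1 to 2 against diabetes, 1 to 3 against HF diet, 0 to 1 in diabetes against HF diet and 0 to 0 in the other 2 comparisons. For the other pathway genes, the count against control (2) became 1 by the methods' t-test and by quantile normalisation, and 0 with array weights, replicate block, covariate or both hearts out. Against diabetes (3) it became 1 by the t-test and with stems averaged, and 0 with quantile normalisation, array weights, replicate block, covariate or both hearts out. Against HF diet (4) it became 2 by the t-test and with the stem block, 1 with quantile normalisation, array weights or both hearts out, and 0 with stems averaged or the covariate. In HF diet against control 1 passed with array weights or both hearts out, and in diabetes against control 1 with both hearts out. With single hearts left out these counts ran from 0 to 4 against control (0 when combination heart 1 was out, 1 for control heart 1, 4 for control heart 5), 0 to 6 against diabetes (0 for combination heart 1 or diabetes heart 6, 1 for diabetes heart 3, 6 for diabetes heart 5), 1 to 6 against HF diet (1 for combination heart 1 or HF diet hearts 1 or 3, 2 for HF diet heart 5), then 0 to 1, 0 to 1 and 0 to 0 in HF diet against control, diabetes against control and diabetes against HF diet. The interaction count (1, Notch2) was 0 with quantile normalisation, array weights, either use of stems or both hearts out, and 0 to 2 with single hearts left out. The causes were not tested. The labels do not say that replicate numbers pair the hearts. With group means removed, 7 of 31 same-number pairs correlated above 0.1 (range -0.42 to 0.56). Pairs of unlike number were not set beside them, so this cannot decide whether hearts are paired. With the replicate block the Notch2 difference from control was -0.26, short of the threshold, and 632 of 29170 probe sets passed it in combination against control, against 965 without.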
